A study of Mus musculus with 3 samples.

Results

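The cells described here carried transcripts of skeletal muscle genes in the developing mouse palate. They were chosen by their own counts: among barcodes with at least 500 detected genes, those with a UMI (a unique molecular identifier, counted as 1 captured transcript) of at least 2 of the 8 genes Myod1, Myog, Myf5, Actc1, Mylpf, Tnnt1, Neb and Ttn. The rule kept 77 of 8107 barcodes, or 0.95% (95% exact binomial interval 0.750 to 1.19%). By embryonic day there were 32 of 3692 at E13.5, 28 of 1775 (E14.5) and 17 of 2640 (E15.5). They are called muscle-gene barcodes below, since only part of them carried several further genes of the label, skeletal muscle lineage.

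The study profiled palatal shelves of wild-type C57BL/6J embryos by droplet single-cell RNA sequencing, with 3 embryos pooled into 1 library at each stage. No group carried a mutation or a treatment. With 1 library per stage there was no replicate and no test: intervals cover counting error only, and stage cannot be told apart from library. Levels are given as CPM, the UMIs of a gene per 1000000 UMIs of the barcodes summed, with exact 95% Poisson intervals. The 3 libraries held 4236, 2079 and 3113 barcodes in order of stage and shared 3, 1 and 1 barcode sequences in pairs, while 0 muscle-gene barcodes occurred in another library.

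Skeletal muscle of the head arises from cranial mesoderm, and the muscles of the soft palate form late, from myogenic cells that settle in mesenchyme derived from neural crest. Myf5 and Myod1 are basic helix-loop-helix factors that commit a cell to the muscle lineage, and Myog, a factor of the same family, drives its differentiation. Differentiating myoblasts leave the cell cycle, fuse into multinucleated fibres through Mymk and Mymx, place acetylcholine receptors in their membrane and assemble sarcomeres from thick myosin filaments, thin actin filaments and the giant proteins titin (Ttn) and nebulin (Neb).

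The muscle-gene barcodes were deeper than the rest, with a median of 5189 UMIs at E13.5 against 1979 in the other barcodes, 4237 against 1883 at E14.5 and 3132 against 1974 at E15.5. The label was set against genes that the rule did not use. A panel held 34 muscle genes (among them Chrna1, Mymk, Myl1, Tnni1, Des and Klhl41). A second list held 8 neuronal markers (Stmn2, Tubb3, Elavl3, Elavl4, Map2, Dcx, Snap25 and Gap43). The panel was written after values had been seen, and the barcodes were chosen for other muscle genes, so it is no independent check. Summed, the panel had 533 UMIs in the muscle-gene barcodes (667 CPM) and 1243 in all others (53.6 CPM), so it was not restricted to the former. UMIs of at least 3 panel genes were found in 39 of the 77 barcodes (12 of 32, 20 of 28 and 7 of 17 by stage) and in 13 of the 8030 others. UMIs of at least 3 neuronal markers were found in 28 of the 77: 18 of 32 (56.3%) at E13.5, 7 of 28 (25.0%) at E14.5 and 3 of 17 (17.6%) at E15.5. The other barcodes had such neuronal counts in 53.1%, 9.04% and 8.43%. The E13.5 library was thus rich in neuronal RNA as a whole, and more than 1 in 2 of its muscle-gene barcodes carried it too. At least 3 of 8 mesenchymal markers (collagens and Twist1 among them) were present in 11, 14 and 8 muscle-gene barcodes by stage (of 32, 28 and 17), against 514 of 3660, 1201 of 1747 and 1835 of 2623 others.

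With the libraries pooled, panel genes were more frequent at each further selection gene. A UMI of 1 selection gene, just outside the rule, went with 3 or more panel genes in 7 of 348 barcodes (2.01%). Just inside it, at 2 selection genes, there were 5 of 29 (17.2%), followed by 4 of 11 (36.4%) at 3 and 7 of 10 (70.0%) at 4. At 5 or more, 23 of 27 (85.2%) did, and 6 of these 27 had 3 or more neuronal markers. The median depth of these steps was 3459, 3715, 4538, 5916 and 3511 UMIs. It rose with the panel share up to 4 selection genes and was lower at 5 or more. The part of depth in these shares was not tested. By library the steps were small and less regular: from 2 selection genes to 5 or more, the counts were 2 of 16, 2 of 6, 2 of 4 and 6 of 6 at E13.5, then 3 of 6, 2 of 4, 4 of 4 and 11 of 14 at E14.5, and 0 of 7, 0 of 1, 1 of 2 and 6 of 7 at E15.5.

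**Figure D1:**
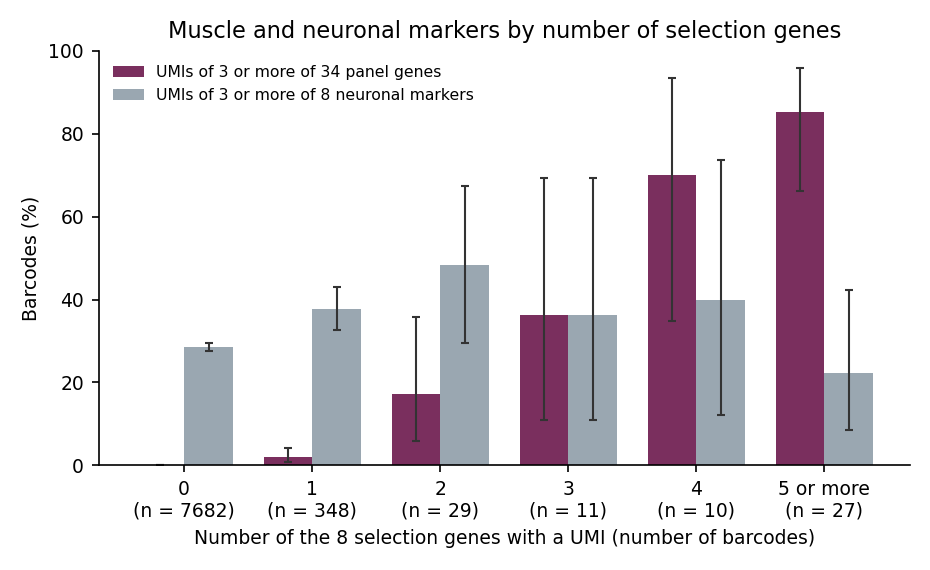
Share of barcodes (%) with UMIs of at least 3 of 34 muscle panel genes (purple) or at least 3 of 8 neuronal markers (grey), by the number of selection genes with a UMI; the 3 libraries are pooled and bars carry exact 95% binomial intervals. The panel share goes from 2.01% at 1 selection gene to 85.2% at 5 or more, while the neuronal share is 48.3% at 2 and 22.2% at 5 or more.

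Of the 77 barcodes, 45 (13, 22 and 10 by stage) had a UMI of a regulator (Myod1, Myog or Myf5) with a contractile gene, 32 (19, 6 and 7) had contractile genes only, and 0 had regulators only. Neuronal markers, at least 3 of 8, were present in 12 of the 45 and in 16 of the 32, and 15 of those 16 came from E13.5. The 33 barcodes with a regulator and fewer than 3 neuronal markers (10, 16 and 7 by stage) are the set in which stages are compared below. Myeloid markers had 3, 6 and 53 UMIs by stage in the 77, the last in 3 barcodes and at 534 CPM against 223 CPM in the other E15.5 barcodes, and 2 UMIs in the 33. What part the neuronal, mesenchymal and myeloid RNA had in the values of the whole set was not tested.

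**Figure D2:**
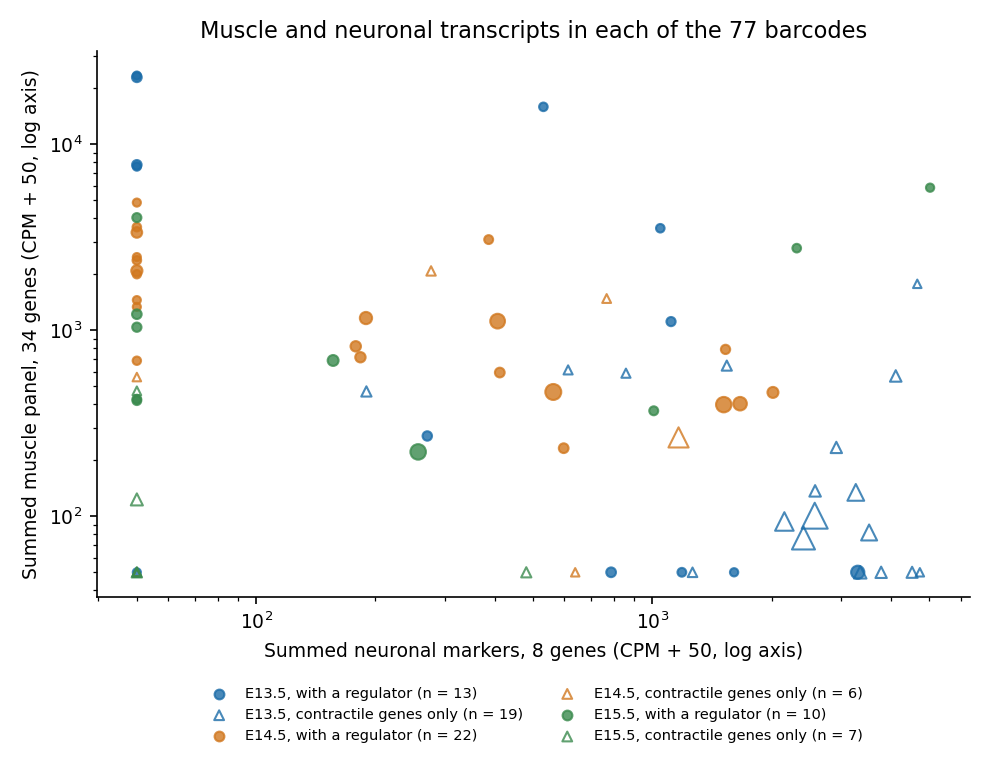
Each of the 77 muscle-gene barcodes by its summed neuronal markers (x axis, 8 genes) and its summed muscle panel (y axis, 34 genes), both in CPM plus a fixed offset on log axes; filled circles have a regulator UMI (n = 13, 22 and 10 by stage), open triangles contractile genes only (n = 19, 6 and 7), and larger symbols have more UMIs. Most large open triangles, at low panel and high neuronal levels, are E13.5 barcodes, with 1 from E14.5 (55651 UMIs), and the highest panel levels belong to E13.5 barcodes with a regulator.

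Myog was found in 34 of the 77 barcodes, with 45, 119 and 15 UMIs by stage in 9, 20 and 5 of them. Its levels in all muscle-gene barcodes were 102 CPM (interval 74.4 to 137), 460 CPM (381 to 550) and, at E15.5, 151 CPM (84.6 to 249), and in the other barcodes of the 3 libraries 0.565, 0.208 and 0.645 CPM. Myod1 had 2, 13 and 6 UMIs in 1, 9 and 5 barcodes, against 2 UMIs in all other barcodes together. Myf5 had 4, 2 and 6 UMIs in 4, 2 and 4 barcodes, against 4 in all others. These genes chose the barcodes, so the gaps to the others are a description.

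Regulators overlapped unevenly. Myog was present in 12 of the 15 barcodes with Myod1 but in 2 of the 10 with Myf5, and 8 of those 10 had Myf5 as their sole regulator (4, 1 and 3 by stage). Counts of 1 or a few UMIs per barcode leave a missing gene undecided, since it may have gone uncaptured.

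Among the contractile selection genes, Actc1, the actin of embryonic striated muscle, had 125, 128 and 37 UMIs by stage, in 15, 20 and 9 barcodes. The titin gene Ttn had 76, 148 and 29 UMIs in 19, 23 and 11 barcodes. Mylpf, the regulatory light chain of fast myosin, was concentrated at E13.5, with 148, 9 and 7 UMIs, and 104 of the 148 lay in 1 barcode. Tnnt1, the slow-muscle troponin T, had 32, 48 and 24 UMIs, and Neb 36, 43 and 18. In the other barcodes together these 5 genes had 27 (Actc1), 68 (Ttn), 87 (Mylpf), 106 (Tnnt1) and 116 (Neb) UMIs.

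Outside the 8 selection genes, a noncoding RNA stood first when genes at 100 CPM or more in the muscle-gene barcodes were ranked by their ratio to the other barcodes. Gm28653 had 29, 42 and 12 UMIs by stage in 8, 16 and 8 barcodes, and 7 UMIs in all others. Its level was 65.8, 162 and 121 CPM by stage against 0.0942, 0.623 and 0.387 CPM in the others, a pooled ratio of 344 (160 to 882). All 3 libraries showed the same order, and 30 of the 32 barcodes with a Gm28653 UMI also had a regulator UMI. In the 33 barcodes with a regulator and few neuronal markers it was present in 23, of which 20 had Myog. Myog itself was in 25 of the 33.

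Gm28653 lies on the plus strand at chr1:20669882-20684298 (GRCm38) and is annotated as a long intergenic noncoding RNA with 2 transcripts and 4 exons. The genes of 2 muscle microRNAs fall inside it, Mir206 (hairpin at chr1:20679010-20679082) and Mir133b (hairpin at chr1:20682769-20682887), both on the same strand. Their 3p mature sequences are printed because they are what this locus is known for, from RefSeq on GRCm38.p6, 5′ to 3′, with the seed (bases 2 to 8) in capitals.
mmu-miR-206-3p: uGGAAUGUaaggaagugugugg
mmu-miR-133b-3p: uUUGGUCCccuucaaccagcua
The seeds differ: that of miR-206-3p was shared by 3 of the 1679 mature sequences in the table and that of miR-133b-3p by 1, itself. The miR-206-3p sequence and the whole Mir133b hairpin lie in annotated exons of Gm28653. The assay captured polyadenylated transcripts of the locus and did not measure the mature microRNAs.

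The 16 genes of muscle progenitors summed to 845 CPM (675 UMIs) in the muscle-gene barcodes and 774 CPM in the others. Eya4, a transcriptional coactivator, had 54, 156 and 54 UMIs by stage in 49 barcodes, at 330 CPM against 268 CPM, and 185 of its 264 UMIs lay in barcodes with a regulator. Pax3, a factor of muscle progenitors and neural crest, had 1, 36 and 14 UMIs in 16 barcodes, at 63.8 against 69.3 CPM. Pax7, the factor of muscle stem and progenitor cells, had 3, 10 and 3 UMIs by stage in 11 barcodes, at 6.80, 38.6 and 30.2 CPM against 0.942, 5.19 and 8.0 in the others. Msc, a repressor expressed in head muscle precursors, had 12, 1 and 8 UMIs in 11 barcodes and 18 in all others. Lbx1, the factor of migrating limb and tongue precursors, had 0 UMIs in any kept barcode, and Tcf21 had 0 in the muscle-gene barcodes and 2 in the others. Of the 16 progenitor genes, 12 reached 10 UMIs in the muscle-gene barcodes and 2 of those, Msc and Pax7, were at least 2-fold higher than in the others. Over all genes with 10 UMIs the share was 1.95% (180 of 9222). This and the other counts against the rest use the contrast that chose the barcodes, and the 10 UMIs were required in the chosen barcodes themselves, so nothing is read from them.

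Regulators of differentiation were led by Vgll2 and Klhl41. Vgll2, a muscle cofactor of TEAD factors, had 11, 12 and 2 UMIs by stage in 16 barcodes against 7 in all others, a ratio of 104 (43.6 to 284). Klhl41, a sarcomere-assembly protein, had 20, 4 and 0 UMIs in 9 barcodes against 12, a ratio of 58.0 (27.9 to 127). Tead4 had 2, 14 and 3 UMIs against 61, and Rbm24, a muscle splicing factor, 13, 30 and 3 against 350. Cdkn1c, the cyclin-dependent kinase inhibitor p57, was broader: 379, 1217 and 534 CPM by stage in the muscle-gene barcodes and 217, 454 and 423 CPM in the others. Its UMIs were found in 32 of the 34 barcodes with Myog. Myf6, a late regulator, had 0 UMIs here and 3 in the others. Of the 15 genes in this list, 12 reached 10 UMIs in the muscle-gene barcodes, and 4 of them (Vgll2, Klhl41, Tead4 and Rbm24) were at least 2-fold higher. The share over all 9222 genes was 1.95%, and nothing is read from this count.

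The fusion genes were nearly restricted to barcodes with Myog. Mymx, the small protein that opens the fusion pore, had 5, 29 and 3 UMIs by stage in 16 barcodes and 1 UMI in all 8030 others. Its level was 11.3, 112 and 30.2 CPM, and 14 of its 16 barcodes had Myog. Mymk, which mediates membrane mixing, had 9, 10 and 1 UMIs in 10 barcodes and 3 UMIs in the others, a ratio of 193 (57.4 to 1016), and all 10 had Myog. Of these 10, 7 also had Mymx. Cdh15, the muscle cadherin, had 4, 12 and 2 UMIs in 13 barcodes against 18 elsewhere. Ncam1, an adhesion molecule of nerve and muscle, did not separate the sets, at 867 CPM in the muscle-gene barcodes and 863 CPM in the others.

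Transcripts of the muscle acetylcholine receptor were also captured. Chrna1, its alpha subunit, had 6, 13 and 4 UMIs by stage in 16 barcodes and 2 UMIs in all others, a ratio of 334 (82.4 to 2919). Chrnb1, the beta subunit, had 7, 17 and 2 against 22, and Musk, the receptor kinase that organises the synapse, 5, 8 and 2 against 10. The fetal gamma subunit Chrng had 6 UMIs against 2, while the adult epsilon subunit Chrne had 1 against 9. Of the 9 genes in this list, 4 reached 10 UMIs in the muscle-gene barcodes, and Chrna1, Chrnb1 and Musk were at least 2-fold higher. Among all 9222 genes the share was 1.95%, and nothing is read from this count.

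Promoters of such genes are known to bind the myogenic factors at E-box motifs. The motif CAGCTG, which reads the same on both strands, was searched in the 250 bases before each transcript start in RefSeq's GRCm38.p6 promoters. It occurred in 4271 of 32851 promoters (13.0%), in 12 of 28 promoters of panel genes (42.9%, 26 genes) and in 1 of 6 of the selection genes. It also occurred in 3 of 9 promoters of the neuronal markers (33.3%, 5 genes). These are too few for a comparison, and nothing is read from the shares. The 150 bases before the start of 3 panel genes with different roles (receptor, intermediate filament, sarcomere assembly) are printed to show the motif in place, in capitals and 5′ to 3′ on the strand of the gene. The regions are chr2:73580339-73580488 (minus strand) for Chrna1, chr1:75360142-75360291 (plus) for Des and chr2:69669970-69670119 (plus) for Klhl41.
Chrna1: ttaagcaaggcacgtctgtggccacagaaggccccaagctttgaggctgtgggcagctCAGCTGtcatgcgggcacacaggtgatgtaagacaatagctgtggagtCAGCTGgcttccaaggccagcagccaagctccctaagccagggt
Des: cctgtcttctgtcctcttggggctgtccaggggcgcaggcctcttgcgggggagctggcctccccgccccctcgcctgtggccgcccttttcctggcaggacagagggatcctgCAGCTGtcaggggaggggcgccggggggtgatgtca
Klhl41: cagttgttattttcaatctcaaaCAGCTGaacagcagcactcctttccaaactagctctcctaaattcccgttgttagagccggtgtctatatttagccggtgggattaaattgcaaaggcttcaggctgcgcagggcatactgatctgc
The motif begins 92 and 44 bases before the Chrna1 start, 36 before that of Des and 127 before that of Klhl41. Binding was not measured, and the printed regions overlap no annotated exon.

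The sarcomere genes captured included embryonic forms. Of the thick filament genes, Myh3, the embryonic myosin heavy chain, had 17, 6 and 5 UMIs by stage in 15 barcodes against 20 in all others, a ratio of 40.6 (22.1 to 76.0). The perinatal Myh8 had 3 UMIs and the adult chains Myh2 and Myh4 had 0. Myl1, a fast alkali light chain, had 42, 2 and 0 UMIs in 6 barcodes against 12, and Myl4, the embryonic light chain, 37, 2 and 3 in 10 against 148. Single barcodes held 35 of the 44 Myl1 UMIs and 27 of the 42 Myl4 UMIs. Mybpc1, the slow myosin-binding protein C, had its highest count at E14.5, with 12, 41 and 1 UMIs in 20 barcodes.

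Beside Actc1, several thin filament genes were captured. Acta1, the actin of mature skeletal muscle, had 2 UMIs in 2 barcodes and 15 in the others. Tnnt2, the troponin T of embryonic muscle and heart, had 11, 9 and 3 UMIs in 13 barcodes against 5, a ratio of 133 (49.6 to 449). Tnni1 had 19, 7 and 0 against 18, and Tnnc1 21, 2 and 0 against 24, both slow-type subunits. Of the fast subunits, Tnni2 had 10 UMIs, and Tnnt3 and Tnnc2 had 1 each. The tropomyosin Tpm1, which most cells express, was at 662 CPM in the muscle-gene barcodes and 652 CPM in the others.

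Des, the muscle intermediate filament, had 6, 13 and 7 UMIs by stage in 18 barcodes against 10 in the others, a ratio of 75.4 (35.2 to 175). Synpo2l, a Z disc protein, had 9, 4 and 1 against 8. The calcium release channel Ryr1 had 10, 14 and 10 UMIs in 21 barcodes against 105, and the calcium pump Atp2a1 2, 11 and 2 in 10 barcodes against 22. Genes of mature fibres were at or near 0: Ckm, the muscle creatine kinase, had 2 UMIs, myoglobin (Mb) 2, Myot 1, and Tcap, Ldb3 and Csrp3 0.

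Receptors and ligands of growth factors included a pair tied to muscle. Fgfr4, the fibroblast growth factor receptor of muscle progenitors, had 3, 13 and 12 UMIs in 15 barcodes against 41 in the others, and Mstn, the growth inhibitor myostatin, 6, 9 and 11 in 14 barcodes against 10. Fgfr1 and Igf1r, broad receptors, had pooled ratios of 0.859 (0.672 to 1.08) and 1.08 (0.969 to 1.20). Of the 12 genes, 11 reached 10 UMIs in the muscle-gene barcodes, and Fgfr4 and Mstn alone were at least 2-fold higher. Over all 9222 genes the share was 1.95%, and nothing is read from this count.

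Smooth and cardiac muscle were looked for as other sources of contractile transcripts. Acta2, the smooth muscle actin, which early skeletal myoblasts also express, had 111, 90 and 58 UMIs in 36 barcodes, at 252, 348 and 585 CPM by stage against 4.05, 14.7 and 34.1 in the others. Acta2 was found in 26 of the 45 barcodes with a regulator, among them 20 of the 34 with Myog. The 8 smooth muscle genes summed to 297 UMIs, most of them Acta2. Tagln, an actin-binding protein of smooth muscle, had 16 UMIs, 11 with a regulator and 5 without, at 20.0 CPM against 15.1 CPM in the other barcodes. Myh11 had 4 UMIs in 2 barcodes, and Cnn1 and Actg2 had 0. The cardiac genes summed to 19 UMIs, of which 18 were of Ryr2, the cardiac calcium release channel, at 22.5 CPM against 29.2 CPM in the others, while Nppa, Myl7, Myh6 and Nkx2-5 had 0. The part of smooth or cardiac muscle in these values was not tested.

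The barcodes with a regulator carried most of the muscle transcripts. Their summed muscle panel stood at 1521 CPM (469 UMIs) against 130 CPM (64 UMIs) in the barcodes with contractile genes only, a ratio of 11.7 (8.97 to 15.4). UMIs of at least 3 panel genes were found in 31 of 45 and in 8 of 32. The pooled median depth went the other way, at 3758 against 6838 UMIs, as it did at E13.5 (2639 against 10832). At E14.5 and E15.5 the barcodes with a regulator were deeper (5503.5 against 2374.5 and 3321.5 against 2555). All 19 panel genes with 10 UMIs in the 2 sets together were at least 2-fold higher with a regulator, where 9.55% of all 9222 genes were. Since 469 of the 533 panel UMIs lay in the regulator set, genes reached 10 UMIs mostly through it, and nothing is read from that count. The sets were chosen by the regulators' UMIs, and no test was made.

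The gap was uneven between libraries, and single barcodes moved it. At E13.5 the panel ratio was 48.2 (33.9 to 70.5), and 25.4 (17.4 to 38.1) without the regulator barcode of 5545 UMIs, which held 127 of the 241 panel UMIs. It was 73.5 (51.6 to 107) without the regulator barcode of 18475 UMIs. At E14.5 it was 2.39 (1.58 to 3.77), but 1 contractile-only barcode held 55651 of the 67328 UMIs of its set, and without it the ratio was 0.771 (0.448 to 1.44), in the opposite direction. At E15.5 it was 14.6 (3.84 to 124), from 51 against 2 UMIs. Without the regulator barcode of 29072 UMIs it was 24.5 (6.39 to 208), and without that of 3511 UMIs 11.2 (2.90 to 96.1). Without the E13.5 library the pooled log2 difference was 1.72 in place of 3.53.

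Lists of muscle structures were compared in the same way. Thick filament genes summed to 542 CPM with a regulator and 71.3 CPM without when pooled. Their ratio was 41.6 at E13.5 (14.3 without the barcode of 5545 UMIs, 63.4 without that of 18475 UMIs). It was 1.17 at E14.5 (0.508 without that of 55651 UMIs, interval 0.218 to 1.45) and 3.72 at E15.5 (13 against 2 UMIs). Acetylcholine receptor and synapse genes were at 263 and 38.7 CPM pooled, with ratios of 15.1 (6.82 to 36.0) at E13.5 and 1.88 (0.910 to 4.35) at E14.5, and 12 against 0 UMIs at E15.5. Z disc and cytoskeleton genes were at 308 and 38.7 CPM pooled, with ratios of 21.6 (10.7 to 47.4), 1.96 (0.867 to 5.19) and 13.2 (2.14 to 543) in order of stage. Without the barcode of 55651 UMIs the E14.5 ratios of these lists were 0.488 (0.209 to 1.40) and 0.793 (0.252 to 4.01).

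Markers of other cells also differed, and pooling mixed the stages. Neuronal markers stood at 753 CPM with a regulator and 2233 CPM without. By library their ratio was 0.540 (0.423 to 0.681) at E13.5, 0.714 (0.528 to 0.974) at E14.5 and 4.01 (1.20 to 21.0) at E15.5. At E13.5, 60 of the 77 neuronal UMIs with a regulator lay in a barcode of 18475 UMIs. Without that barcode the ratio was 0.182 (0.105 to 0.292). At E14.5, 62 of the 66 neuronal UMIs without a regulator lay in the barcode of 55651 UMIs, and the ratio without it was 2.04 (0.780 to 7.61). Mesenchymal markers were at 4490 against 1911 CPM pooled, with ratios of 0.446, 0.890 and 0.914 by stage. At E13.5 the barcode of 18475 UMIs held 19 of the 21 mesenchymal UMIs with a regulator. Without it the ratio was 0.0648 (0.00781 to 0.236). At E14.5 the barcode of 55651 UMIs held 425 of the 436 mesenchymal UMIs of its set, and without it the ratio was 6.12 (3.40 to 12.3). At E15.5, 209 of the 260 mesenchymal UMIs with a regulator lay in 1 barcode, and the ratio without it was 0.333. In the E13.5 library, 15 of the 19 contractile-only barcodes had 3 or more neuronal markers. The 6 globin genes had ratios of 0.330 (0.295 to 0.368), 0.688 (0.610 to 0.777) and 1.15 (0.914 to 1.44) by stage. Without the barcode of 18475 UMIs the E13.5 ratio was 0.110, and without that of 55651 UMIs the E14.5 ratio was 1.08 (0.801 to 1.50).

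**Figure D3:**
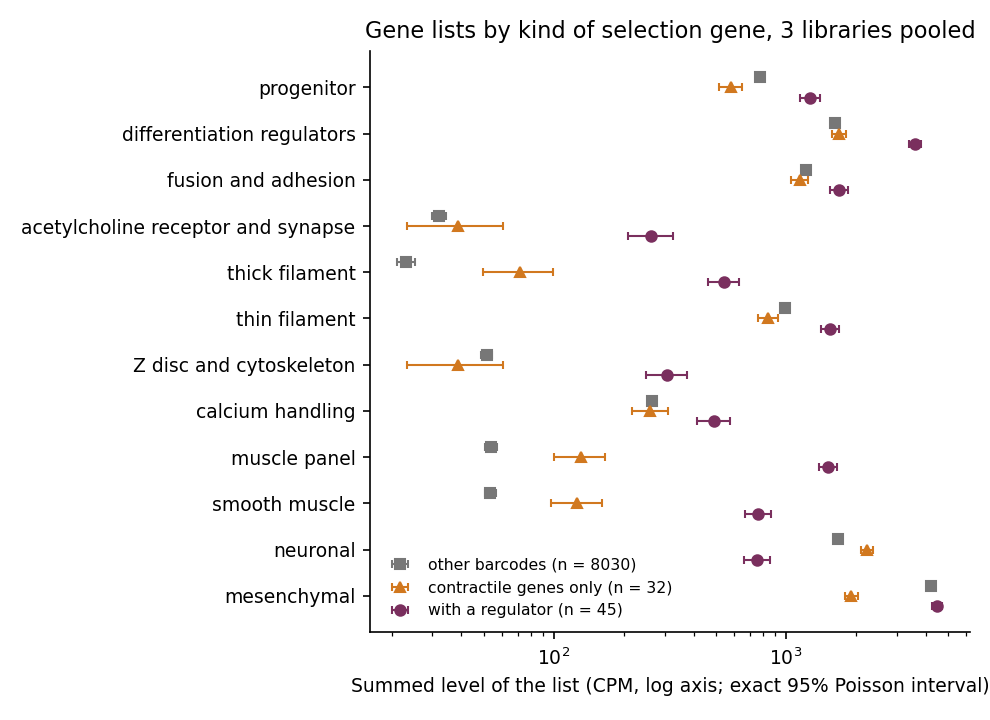
Summed CPM of 12 gene lists (log axis, exact 95% Poisson intervals) in the other barcodes (grey squares), in barcodes with contractile selection genes only (orange triangles) and in barcodes with a regulator (purple circles), the 3 libraries pooled. The muscle panel is at 53.6, 130 and 1521 CPM in that order, whereas the neuronal markers are at 1684, 2233 and 753 CPM; pooling mixes the stages, and at E15.5 the neuronal markers are at 333 CPM with a regulator and 83.0 CPM with contractile genes only.

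Between stages, the order of the muscle panel depended on which barcodes were summed. Over all muscle-gene barcodes the E14.5 library was highest, at 784 CPM (680 to 900), then E13.5 at 628 (556 to 707), then E15.5 at 534 (400 to 699). In the 33 barcodes with a regulator and fewer than 3 neuronal markers the E13.5 library was highest, at 9082 CPM (7963 to 10315), then E14.5 at 1553 (1280 to 1868) and E15.5 at 1079 (743 to 1516). At E13.5, the 18 barcodes with 3 or more neuronal markers held 399766 of the 441054 UMIs of the muscle-gene barcodes, and their panel level was 82.5 CPM. The log2 difference of E14.5 to E13.5 was 0.32 over all and -2.55 in the 33.

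Within the 33, E13.5 exceeded E14.5 by 5.85-fold (4.65 to 7.38) on the panel. A single E13.5 barcode of 5545 UMIs held 127 of the 237 panel UMIs; without the barcode of most panel UMIs at each stage the ratio was 4.05 (3.02 to 5.44). Single barcodes ranged from 0 to 23385 CPM at E13.5 (median 5520, with 3 of 10 at 0), from 182 to 4813 at E14.5 (median 1679) and from 319 to 3987 at E15.5 (median 639). These ranges overlap. The ratio of E14.5 to E15.5 on the panel was 1.44 (0.969 to 2.19), and 1.88 (1.14 to 3.28) without the barcode of most panel UMIs at each stage, so that 1 barcode per stage decides whether it passes the counting error.

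Single sarcomere genes differed between stages to unequal degrees. In the 33, thick filament genes summed to 3947, 302 and 196 CPM by stage, but 72 of the 103 UMIs at E13.5 lay in the barcode of 5545 UMIs. Without the barcode of most panel UMIs at each stage the sums were 1509, 311 and 73.9 CPM, and the ratio of E13.5 to E14.5 was 4.85 (2.68 to 8.98) in place of 13.1. Mylpf was at 5250 CPM (137 UMIs in 6 barcodes), 124 CPM (9 in 4) and 65.4 CPM (2 in 2), and without the barcode of 5545 UMIs the E13.5 value was 1606 CPM. Myl1 had 41, 1 and 0 UMIs, Myl4 34, 0 and 0, Tnnc1 20, 1 and 0, and Klhl41 19, 3 and 0. Without that barcode the E13.5 counts were 6 for Myl1, 7 for Myl4, 8 for Tnnc1 and 9 for Klhl41. The Actc1 level was 4100 (3360 to 4955), 1430 (1168 to 1732) and 949 CPM (635 to 1362), and Ttn was at 2338, 811 and 360 CPM. At E13.5, the barcodes of 5545 and 4795 UMIs held 43 and 46 of the 107 Actc1 UMIs. At E15.5, 1 barcode of 9397 UMIs held 20 of the 29 Actc1 and 7 of the 11 Ttn UMIs. That barcode was also among those with the highest doublet scores. Tnnt1 was at 575, 454 and 327 CPM. Mylpf, Actc1, Ttn and Tnnt1 are selection genes that chose these barcodes, so their stage levels are a description only. Gm28653 was at 1035, 344 and 294 CPM.

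Regulators and fusion genes were read in the same barcodes. The Myog level was 1648 CPM (1193 to 2220) for E13.5, 1237 (995 to 1521) for E14.5 and 393 (203 to 686) for E15.5, and the intervals at E13.5 and E14.5 overlap. A regulator UMI was required of these barcodes, so the Myog levels are a description and nothing is read from the overlap. At E15.5, 9 of the 12 Myog UMIs lay in 1 barcode, and without the barcode of most panel UMIs the levels were 1071, 980 and 111 CPM. Mymx was at 153, 344 and 32.7 CPM from 4, 25 and 1 UMIs, and Chrna1 at 230, 96.2 and 131 CPM from 6, 7 and 4. Fgfr4, at 2, 4 and 11 UMIs, was at 76.6, 55.0 and 360 CPM.

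Of the 34 panel genes, 16 reached 10 UMIs in E13.5 and E14.5 together within the 33. At E14.5, 10 of them were at least 2-fold lower and 2, Mymx and Mybpc1, at least 2-fold higher. Over all 2244 genes, 11.6% were lower and 21.4% higher by that measure. Several panel genes reached 10 UMIs mostly through E13.5, where they were high and where 1 barcode held 127 of the 237 panel UMIs, so nothing is read from these counts. Mesenchymal markers moved as well, with 2, 224 and 50 UMIs by stage (76.6, 3079 and 1635 CPM), and at least 3 of them were present in 0, 6 and 3 barcodes. The 6 globin genes had 50, 411 and 101 UMIs (1916, 5650 and 3304 CPM), a ratio of E14.5 to E13.5 of 2.95 (2.19 to 4.04). The median depth was 2043, 2560 and 3511 UMIs. The part of this RNA and of depth in the stage values was not tested.

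**Figure D4:**
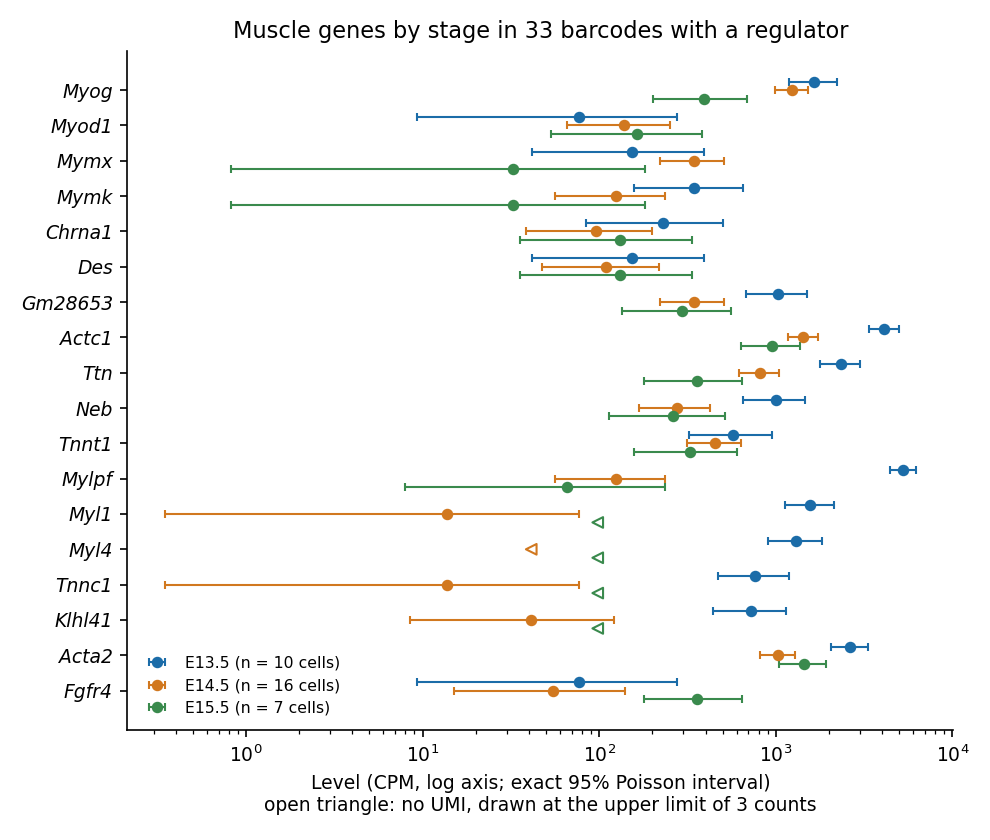
Level of 18 genes (CPM, log axis, exact 95% Poisson intervals) in the 33 barcodes with a regulator and fewer than 3 neuronal markers, by stage (10, 16 and 7 barcodes); an open triangle marks a gene without a UMI, drawn at the upper limit of 3 counts. Mylpf, Myl1, Myl4 and Tnnc1 are highest at E13.5, where 1 barcode of the 10 holds most of their UMIs, and the Mylpf level without it is 1606 in place of 5250 CPM. The intervals of Myog overlap at E13.5 and E14.5. Myog, Myod1, Actc1, Ttn, Neb, Tnnt1 and Mylpf are selection genes that chose the barcodes, so their levels are a description.

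Shares of barcodes with a UMI were compared with 339 barcodes outside the muscle-gene set that had at least 2 endothelial or myeloid markers. Muscle genes in them serve as a rough measure of free RNA. Barcodes with 2 or more selection genes were left out of the 339, so their low muscle shares follow in part from that choice. By stage they numbered 46, 130 and 163, mostly from later libraries than the muscle-gene barcodes. Nothing is read from the gaps. After thinning to 1500 UMIs, 65 muscle-gene barcodes and 242 endothelial or myeloid barcodes remained, with median depths before thinning of 5482 and 3443 UMIs. A further 12 and 97 were too shallow. Myh3 was found in 9 of 65 (13.8%, interval 6.51 to 24.7%) and in 0 of 242, which allows up to 1.24%. Mymx was found in 7 of 65 (10.8%), Mymk in 4 (6.15%) and Chrna1 in 2 (3.08%), each against 0 of 242. Des was found in 5 of 65 (7.69%) and in 1 of 242 (0.413%). Without thinning the shares were 19.5% for Myh3, 20.8% for Mymx, 13.0% for Mymk, 20.8% for Chrna1 and 23.4% for Des, against 0 of 339 for the former 4 and 3 of 339 for Des, at medians of 4418 and 2585 UMIs.

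Proliferation genes were counted in the same way, although endothelial and myeloid cells can divide and so give no background share for them. Mki67 was found after thinning in 14 of 65 muscle-gene barcodes (21.5%, 12.3 to 33.5%) and 36 of 242 endothelial or myeloid barcodes (14.9%), and Top2a in 21 of 65 (32.3%) and 85 of 242 (35.1%). Unthinned, Mki67 was in 41.6% and 25.7% and Top2a in 61.0% and 40.1%. Of the 34 barcodes with Myog, 15 had Mki67 and 18 had Top2a; among the 33 with few neuronal markers these were 8 and 10 of 25. Genes of G2 and M phase summed to 1041 CPM with a regulator and 1761 CPM with contractile genes only, a ratio of 0.591. By library the ratio was 0.545 (0.409 to 0.713) at E13.5, 0.803 (0.612 to 1.06) at E14.5 and 1.54 (1.02 to 2.39) at E15.5, so the direction turned. Phase calls were not made.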

How the data were processed

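Counts were deposited by the authors as 1 matrix of UMI counts per gene and barcode for each library, made with Cell Ranger 6.1.2 on mm10 per the submitters' processing notes. The annotation and the doublet treatment are not given in the sources used here. Tissue was dissociated with TrypLE and fixed in methanol, per the labels' protocols. Levels were computed from summed counts with Python 3.11.15, numpy 2.4.6, scipy 1.17.1 and pandas 2.3.3, and log2 ratios had 1 CPM added. Genes needed 10 UMIs to enter a count of genes, and the interval functions were tested on simulated data. Doublets were kept, and scanpy 1.11.5 scored them for an alternative. The selection genes, the 26 gene lists and the comparisons were chosen with earlier results of these data known. The panel of 34 genes was written after values had been seen. Named genes are the 8 selection genes, the 20 ranked genes and, from each list, those with most UMIs or the extreme ratios; the remainder were chosen after their values were seen. The alternatives that weight every barcode equally, keep regulator barcodes with fewer than 3 neuronal markers or leave out single barcodes of a set were also added after seeing the data. Gene positions come from GENCODE and matched the files' identifiers.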

Additional observations from a re-analysis of the deposited data

How the results depend on the processing

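Values were recomputed under the alternatives that apply to them, with 1 choice changed at a time, except that the set of 33 barcodes joins the regulator requirement with the neuronal limit. The share of muscle-gene barcodes at E13.5 was 0.87% as reported, 0.43% with at least 3 selection genes and 0.38% without barcodes of 3 or more neuronal markers. The log2 difference of the muscle panel between muscle-gene and other barcodes, 3.61, was 4.28 with at least 3 selection genes, 3.49 with at least 1000 detected genes, 5.27 without neuronal-marker barcodes, 3.93 without the deepest barcode of each library and 5.07 with every barcode weighted equally, and 3.41, 3.46 and 3.99 without E13.5, E14.5 and E15.5. Between barcodes with a regulator and with contractile genes only, 3.53 became 3.02 without neuronal-marker barcodes and 1.72 to 4.78 with a library left out.

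The stage difference turned. E14.5 minus E13.5, 0.32 over all, was -0.42 with at least 3 selection genes, -1.97 without neuronal-marker barcodes, -1.02 with equal weights and -2.55 in the 33 barcodes. E15.5 minus E13.5, -0.23 over all, was -0.79, -3.49, -1.44 and -3.07 in the same order, and E15.5 minus E14.5, -0.55 over all, was -1.52 without neuronal-marker barcodes. Levels of the selection genes depend on the choice of barcodes. Among them, E14.5 minus E13.5 turned for Myog to -0.41 in the 33. For Ttn it turned to -0.73 without neuronal-marker barcodes and -1.53 in the 33. Among ranked genes, leaving out neuronal-marker barcodes turned Cga (-3.92), Zmat4 (-1.91), Hba-x (-3.19), Plpp3 (-1.55) and Hbb-y (-2.29). Without E13.5, Hba-x was -0.48 and Hbb-y -0.070, and without E14.5 Zmat4 was -0.046. Plpp3 was -0.18 with equal weights. With no minimum beyond 1 UMI, the median sarcomere gene, E15.5 minus E13.5, was -1.35. The cause was not tested. In the 33 barcodes Myl1, Myl4 and Tnnc1 had 0 or 1 UMI at E14.5 and E15.5, which limits their stage values.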

Other observations

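Several of the 20 genes ranked by their ratio to the other barcodes rested on single barcodes. Cga, the alpha subunit of pituitary glycoprotein hormones, had 242 UMIs in 5 muscle-gene barcodes, 225 of them in 1 barcode at E15.5. The transcript 4933439K11Rik had 121 UMIs in 3 barcodes, and Ank1, an ankyrin with muscle and red cell forms, had 92 of its 115 UMIs in 1. Hba-x and Hbb-y, embryonic globins of primitive red cells, had 601 of 921 and 1107 of 2388 UMIs in 1 barcode each, and 910 and 2365 of these UMIs lay at E13.5.

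Other ranked genes were spread more widely. Rb1, which holds differentiating myoblasts out of the cell cycle, had 135 UMIs in 41 barcodes, at 169 CPM against 81.3 CPM in the other barcodes. Nrk, a kinase gene, had 147 UMIs in 42 barcodes, in the ratio 2.39 (2.01 to 2.83). Ppp1r14b, a phosphatase inhibitor gene, had 651 UMIs in 66 barcodes, at 815 against 328 CPM. Dystrophin-complex genes summed to 831 CPM against 971 CPM in the others. Genes of the Notch pathway summed to 763 CPM against 901 CPM in the other barcodes.

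The rule left out 13 barcodes with 3 or more panel genes and fewer than 2 selection genes, with 6, 3 and 4 by stage. Nothing further was computed for them.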
